A study of Mus musculus with 6 samples.

Results

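This section describes the zinc finger protein genes of the mouse anterior hypothalamus, taken as the table entries whose symbol is Zfp, Zkscan or Zscan followed by a number and whose level was at least 2 RPKM in all 3 input libraries. Of 13724 gene entries, 326 had such a symbol, and 266 of these reached the floor. The other 60 stayed out. The genes were thus chosen by measured input RPKM, which is also 1 side of the comparison of IP with input, so counts and medians over them are descriptions; all 266 passed the filter of the fit. RPKM is the read count scaled to gene length and library size, so levels can be compared between genes. The immunoprecipitates (IP) hold RNA bound to ribosomes whose protein S6 is phosphorylated at sites 244 and 247, a mark of active neurons. The inputs hold total RNA of the same dissections. All 6 libraries came from wild type C57Bl6/J mice that had been kept at warm temperatures, with 1 IP and 1 input from each of 3 numbered warm challenges. The sources used here give no age, sex, temperature, duration or number of animals for any library. No group at another temperature was analysed here, so an IP difference cannot be tied to warmth.

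Zinc finger proteins hold a zinc ion between cysteine and histidine residues, and most of those named Zfp carry rows of such fingers that read DNA. Many of them also carry a KRAB domain, which binds the corepressor Trim28 and through it the histone methyltransferase Setdb1, and so silences transposable elements and imprinted loci. Zkscan and Zscan proteins carry a SCAN domain, with which they pair with each other. A few members, such as Zfp36l1 and Zfp36l2, have fingers of another type that bind AU-rich elements of mRNAs and bring about their decay. Many of the genes lie in clusters that arose by tandem duplication, so near-identical copies can share reads. How the authors' counting treated such reads is not stated, and values of clustered members carry that uncertainty.

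Summed RPKM was between 374708 and 496125 in the IP libraries and between 384389 and 476059 in the inputs, and the absolute depth is unknown. The 266 genes made up 0.446% to 0.579% of the summed RPKM in IP, against 0.581% to 0.807% in input. Of 10 neuronal markers 9 were listed, with a summed level of 3976 to 7425 RPKM in IP and 4329 to 5894 RPKM in input. Most of this sum was Snap25, with 2063, 3948 and 5392 RPKM in IP and 2790, 3127 and 4144 RPKM in input. The median log2 fold of the 9 markers was 0.32, with 2 of them negative, and 0 passed by limma. The 8 oligodendrocyte markers summed to 274 to 330 RPKM in IP and to 920 to 1040 RPKM in input, so the tissue labelled preoptic neurons held glial RNA. The 6 astrocyte markers summed to 27.9 to 85.4 RPKM in IP and to 54.3 to 99.2 RPKM in input. Of 5 endothelial markers 2 were listed, at a sum of 0.516 to 1.81 RPKM in IP and 1.1 to 1.67 RPKM in input, while the 4 erythroid markers summed to 202 to 567 RPKM in IP and to 14.1 to 50.3 RPKM in input. The part of these cell types in the zinc finger values was not tested. In such bulk samples fewer cells of a type and less RNA per cell cannot be told apart.

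The zinc finger genes lay lower in IP than in input more often than other genes did, mostly by small amounts; this difference between gene sets was not tested. Their median level was 5.49, 4.62 and 5.06 RPKM in IP 1, 2 and 3, against 7.0, 6.58 and 7.58 RPKM in input 1, 2 and 3. Over all 12328 genes tested the library medians were 8.97 to 9.35 RPKM in IP and 10.2 to 10.6 RPKM in input. The median log2 fold of the 266 genes, IP minus input on log2(RPKM + 1), was -0.42, with the middle of the distribution between -0.68 and -0.14. It was -0.18 over all genes tested, and also -0.18 over the 10288 other genes that met the same floor. A negative fold was found for 226 of the 266 genes (85.0%), against 65.2% of all genes tested and 65% of the others at the floor. This lean was not particular to the Zfp, Zkscan and Zscan genes. In other families linked to zinc fingers the share ran from 53.3% (15 Zc3h genes) to 88.5% (26 Zbtb genes) and 88.9% (9 Zmym and Zmynd genes). Scaling each library to a common median moved the median of all genes by 0.16. The median of the zinc finger genes was then -0.27, and 72.2% had a negative fold against 50.4% of the others at the floor, while quantile normalization gave -0.20 and 69.9% against 53.4%.

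**Figure D1:**
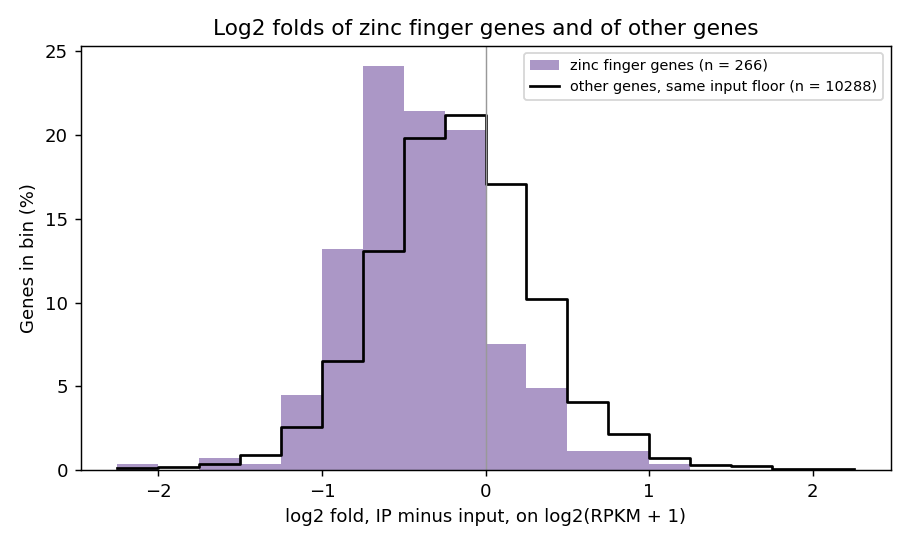
Share of genes (y axis, percent) by log2 fold of IP minus input (x axis, bins of 0.25) for the 266 zinc finger genes (filled bars) and the 10288 other genes with at least 2 RPKM in all inputs (black outline); 36 of the others lie beyond the axis. The bars peak left of the outline, and 85.0% of the zinc finger genes lie below 0 against 65% of the others.

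A floor on the input side favours genes with high input. The shift was therefore set beside other choices of genes. With no floor the median was -0.42 over the 310 zinc finger genes tested, and with a mean of at least 2 RPKM over the 6 libraries it was -0.41 over 274 genes. With the floor placed on all 3 IP libraries instead, which favours high IP values, it was -0.35 over 219 genes. The median of other genes under the mean floor or the IP floor is not given, so neither has a like comparison. The genes nearest to the floor are given without a test. Just inside were Zfp518, with 2.73, 1.47 and 1.51 RPKM in IP and 2.76, 2.02 and 3.72 RPKM in input, and Zfp526, with 2.35, 1.86 and 0.768 RPKM in IP and 3.68, 2.04 and 4.29 RPKM in input. Just outside were Zfp661, with 1.31, 1.32 and 1.53 RPKM in IP and 1.98, 2.81 and 3.41 RPKM in input, and Zfp707, with 1.78, 4.04 and 3.18 RPKM in IP and 2.59, 2.99 and 1.98 RPKM in input.

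The shift was seen within every warm challenge. IP was below its own input for 78.6% of the zinc finger genes in challenge 1, 80.8% in challenge 2 and 81.2% in challenge 3, against 64.0%, 62.7% and 60.2% of the others at the floor. The median fold of the zinc finger genes within the challenges was -0.32, -0.45 and -0.50, against -0.22, -0.17 and -0.16 for the others. In all 3 challenges 169 of 266 zinc finger genes were below input (63.5%), against 37.5% of all genes tested. All 3 IP values lay below all 3 input values for 128 of them (48.1%), against 23.5% of all genes tested, and above all 3 input values for 5, against 6.85% of all genes tested and 7.05% of the others at the floor. Replicates of the zinc finger genes were also close together, with a median SD on the log2 scale of 0.288 in IP and 0.186 in input, against 0.342 and 0.226 for the others at the floor.

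**Figure D2:**
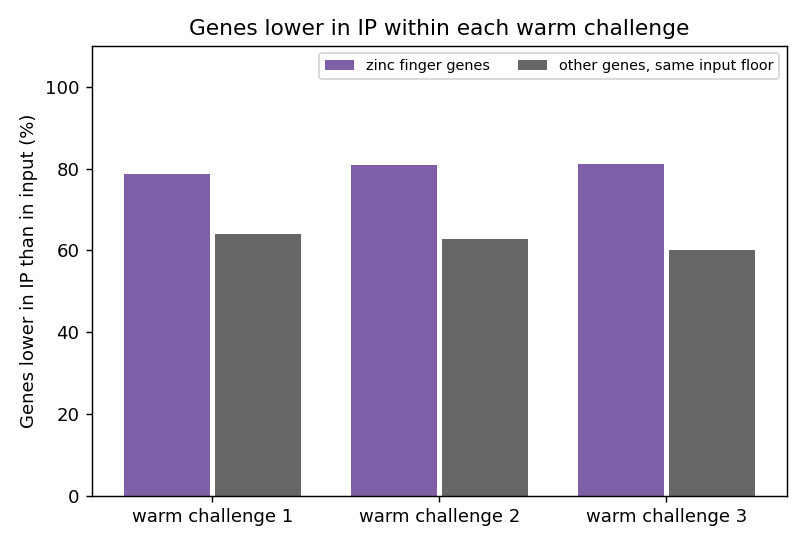
Share of genes (y axis, percent) whose IP value lay below the input value of the same warm challenge (x axis), for the 266 zinc finger genes (left bars) and the 10288 other genes with the same input floor (right bars). The left bars lie between 78.6% and 81.2%, the right bars between 60.2% and 64.0%.

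Single calls were few. At an adjusted p under 0.05 (limma, Benjamini-Hochberg over all 12328 genes, two-sided), 12 of the 266 genes were lower in IP (4.51%), beside 3.29% of all genes tested and 3.66% of the others at the floor, a share near the background. None was higher by limma, where 0.892% of all genes tested and 0.807% of the others at the floor were. At an unadjusted p under 0.05 there were 106 lower and 5 higher of the 266, where 19.3% of all genes tested were lower and 5.04% higher. With the warm challenge as a block, 14 were lower (5.26%, against 3.99% of all genes tested and 4.37% of the others at the floor) and 1 higher (0.376%, against 1.33% and 1.29%). Without IP 1, 56 zinc finger genes were lower (21.1%, against 10.1% of all genes tested) and 4 higher (1.5%, against 3.65%). Leaving out any 1 of the inputs or IP 2 ended all 12 calls, and leaving out IP 3 kept 1. Calls were lost over all genes in these fits: omitting IP 2 or IP 3 left 0.414% or 0.527% of all genes tested lower, and omitting an input left 0.162% (input 1), 0.17% (input 2) or 0.462% (input 3). Median scaling kept 3 of the 12, namely Zfp113, Zfp36l1 and Zfp644, with 1.04% of all genes tested lower and 0.982% higher. Quantile normalization kept these and Zfp825, with 1.01% of all genes tested lower and 1.05% higher.

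Among the 12 called genes, the 3 largest folds belonged to genes of different kinds. Zfp113, a finger protein whose gene lies next to Zscan21, had 7.13, 2.16 and 2.67 RPKM in IP, against 14.6, 16.3 and 27.5 RPKM in input. Its IP values lay apart from its inputs, with IP 1 nearest to them. The log2 fold was -2.12 (SE 0.38, limma adjusted p = 0.0266). Zfp36l1, the AU-rich element binding protein, had 2.60, 2.57 and 2.86 RPKM in IP, against 12.6, 7.48 and 8.84 RPKM in input. The IP libraries gave nearly the same value, well under the lowest input, and the log2 fold was -1.50 (SE 0.24, limma adjusted p = 0.0175). Zfp644, known as a partner of the G9a histone methyltransferase complex, had 19.7, 12.1 and 17 RPKM in IP, against 38.2, 42.6 and 50.9 RPKM in input. Its groups did not overlap, and the log2 fold was -1.39 (SE 0.24, limma adjusted p = 0.0240). The calls of Zfp113 and Zfp644 were kept without IP 1 (adjusted p = 0.00609 and 0.0103) and lost without any 1 of the other libraries (up to 0.0954 and 0.111). That of Zfp36l1 was kept without IP 1 or IP 3 and lost otherwise (up to 0.0933).

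Another 4 called genes had log2 folds of -1.17 to -1.0. Zfp106, an RNA-binding protein needed for the upkeep of motor neurons in mice, had 35.9, 22.3 and 23.4 RPKM in IP, against 51.4, 54.0 and 73.4 RPKM in input (log2 fold -1.12, SE 0.26, limma adjusted p = 0.0461). IP 1 was again the IP library nearest to the inputs, and with the block the adjusted p was 0.0531. Zfp825 had 16.4, 16.7 and 18.9 RPKM in IP, against 39.0, 36.1 and 34.8 RPKM in input (log2 fold -1.04, SE 0.20, limma adjusted p = 0.0310). Zfp161, which RefSeq now names Zbtb14 and which represses transcription through a BTB domain, had 7.10, 6.52 and 6.38 RPKM in IP, against 13.6, 13.7 and 15.8 RPKM in input (log2 fold -1.0, SE 0.20, limma adjusted p = 0.0337). The replicates of Zfp825 and Zfp161 lay close together in either fraction, with a wide gap between the fractions. Zfp641 had 1.61, 0.840 and 1.29 RPKM in IP, against 3.34, 3.52 and 5.38 RPKM in input (log2 fold -1.17, SE 0.25, limma adjusted p = 0.0380). These 4 calls were kept without IP 1 (adjusted p = 0.0131 to 0.0210) and lost without any 1 of the other libraries (up to 0.153).

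The other 5 calls were finger genes of low level with folds close to -1. Zfp607, now Zfp607a in RefSeq, had 4.29, 3.62 and 2.40 RPKM in IP, against 9.32, 7.07 and 7.44 RPKM in input (log2 fold -1.03, limma adjusted p = 0.0485). Zfp738 had 3.88, 3.99 and 3.25 RPKM in IP, against 9.34, 7.83 and 7.79 RPKM in input (log2 fold -0.98, limma adjusted p = 0.0386). Zfp120 had 2.81, 1.73 and 2.59 RPKM in IP, against 5.25, 5.76 and 5.89 RPKM in input (log2 fold -0.99, limma adjusted p = 0.0427). In these 3 genes every IP library was below every input. Zfp566 had 1.5, 1.77 and 2.05 RPKM in IP, against 3.95, 4.25 and 4.67 RPKM in input (log2 fold -0.93, limma adjusted p = 0.0426). Zfp442 had 1.57, 1.15 and 1.59 RPKM in IP, against 3.33, 3.88 and 3.46 RPKM in input (log2 fold -0.91, limma adjusted p = 0.0446, and 0.0531 with the block). For low genes such as these the pseudocount of 1 understates the fold. Their calls were kept without IP 1 (adjusted p = 0.0221 to 0.0341) and lost without any 1 of the other libraries (up to 0.192).

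**Figure D3:**
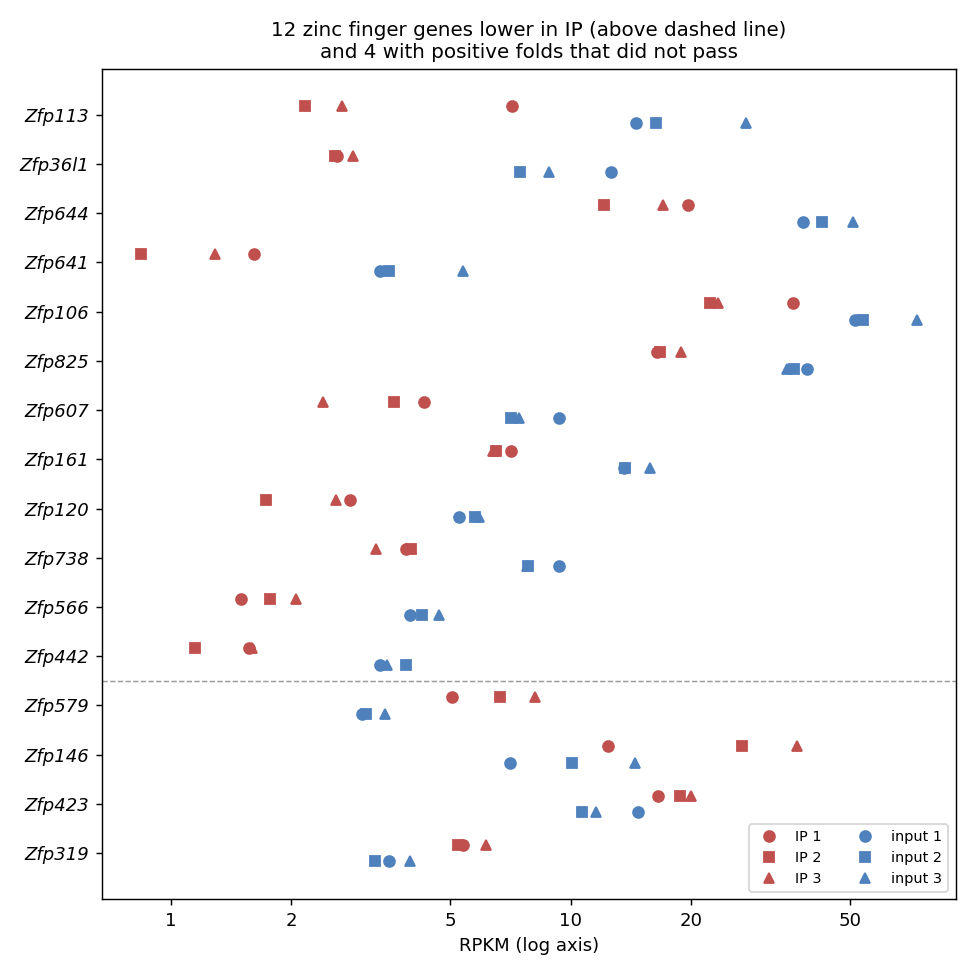
RPKM (x axis, log scale) in each library for the 12 genes lower in IP, in order of fold, and below the dashed line for the 4 genes with the smallest p among positive folds, which did not pass. IP values (red) stand above input values (blue) in each row, the symbol shape gives the warm challenge, and in all 12 called genes the red points lie left of the blue ones.

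With the warm challenge as a block, further genes passed. Zfp353, which RefSeq lists as a pseudogene, had 9.15, 4.23 and 8.64 RPKM in IP, against 42.1, 15.8 and 17.5 RPKM in input, with input 1 far above the other inputs. Its log2 fold was -1.57 (limma adjusted p = 0.0575 without and 0.0325 with the block). Zfp799 had a log2 fold of -1.05 (limma adjusted p = 0.0540 without and 0.0439 with the block). Zfp395 had -0.96 (limma adjusted p = 0.0880 without and 0.0480 with the block). A single gene was higher in IP. Zfp146, also called OZF because it consists of little but zinc fingers, had 12.4, 26.9 and 36.9 RPKM in IP, against 7.04, 10.1 and 14.5 RPKM in input. Its groups overlap, since IP 1 was below input 3, but IP was above input in each challenge, with a log2 fold of 1.12 (SE 0.39, limma adjusted p = 0.122 without and 0.0378 with the block).

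Few of the zinc finger genes leaned towards IP. Zfp579 had 5.05, 6.64 and 8.13 RPKM in IP, against 3.01, 3.07 and 3.43 RPKM in input (log2 fold 0.85, limma adjusted p = 0.0684), without overlap of the groups. It passed after quantile normalization. Zfp423, a factor that binds Ebf proteins and acts in brain development, had 16.5, 18.8 and 20 RPKM in IP, against 14.7, 10.7 and 11.6 RPKM in input (log2 fold 0.55, limma adjusted p = 0.155). Zfp319 had 5.37, 5.22 and 6.14 RPKM in IP, against 3.52, 3.23 and 3.97 RPKM in input (log2 fold 0.53, limma adjusted p = 0.157). Without IP 1 the 4 genes called higher, named here after their values were seen, were Zfp146 (log2 fold 1.55, limma adjusted p = 0.0188), Zfp239 (1.38, adjusted p = 0.0118), Zfp260 (1.14, adjusted p = 0.0137) and Zfp579 (1.00, adjusted p = 0.0241). Zfp239 had 15.3, 47.2 and 55.9 RPKM in IP, against 16.2, 22.7 and 19.0 RPKM in input, and Zfp260 had 23.0, 47.8 and 56.0 RPKM in IP, against 23.0, 21.3 and 24.7 RPKM in input. In both, IP 1 lay at the level of the inputs while IP 2 and IP 3 lay far above it.

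The zinc finger genes named for the highest levels were Zfp706, Zfp207, Zfp664, Zfp330, Zfp365 and Zfp106. All of these except Zfp330 had a negative fold. Zfp106, described above among the called genes, had the lowest of them (log2 fold -1.12). Zfp706, the highest with a small protein linked to the exit of stem cells from pluripotency, had 42.5, 111 and 86.0 RPKM in IP, against 83.5, 89.2 and 81.2 RPKM in input. The inputs were alike and the IP libraries spread widely around them, with IP 1 lowest. The log2 fold was -0.19 (limma adjusted p = 0.777). Zfp207, a spindle and splicing factor also called BuGZ, had 48.3, 60.3 and 57.3 RPKM in IP, against 89.1, 84.1 and 93.0 RPKM in input. Its groups did not overlap, and the log2 fold of -0.68 missed the threshold (limma adjusted p = 0.0989). Zfp365, a partner of Disc1 in neurons and oligodendrocytes, had 33.4, 30.0 and 47.3 RPKM in IP, against 53.9, 55.4 and 70.9 RPKM in input (log2 fold -0.70, limma adjusted p = 0.123). Zfp664 and the nucleolar protein gene Zfp330 had log2 folds of -0.16 and 0.08 (limma adjusted p = 0.782 and 0.908), with overlapping groups.

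Median folds by level were set beside those of other genes. The 107 zinc finger genes with a mean under 5 RPKM over the 6 libraries had a median log2 fold of -0.47, and the 1874 others at the floor in that range had -0.38. Between 5 and 10 RPKM the medians were -0.41 for 82 zinc finger genes and -0.20 for the others, and between 10 and 20 RPKM they were -0.32 for 51 and -0.18 for the others. At 20 RPKM or more they were -0.19 for 26 zinc finger genes and -0.07 for the others. The zinc finger medians were thus the lower ones in all 4 ranges, with the smallest difference under 5 RPKM.

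**Figure D4:**
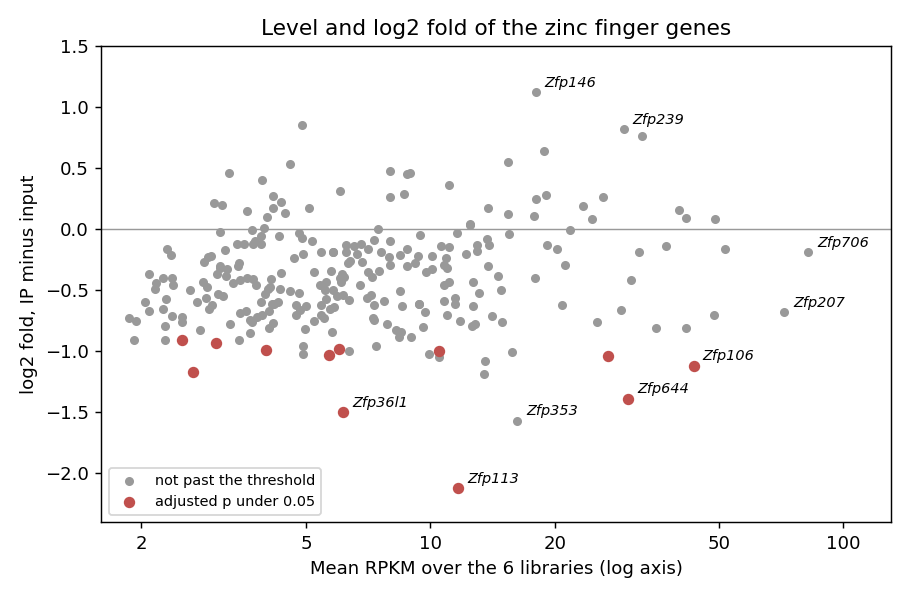
Log2 fold of IP minus input (y axis) against mean RPKM over the 6 libraries (x axis, log scale) for the 266 zinc finger genes, with the 12 past an adjusted p of 0.05 in red. Most points lie below 0 at every level, and Zfp113 has the lowest fold at -2.12 and Zfp146 the highest at 1.12.

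Genes with a named role in neural development or chromatin were mostly without a call. This was not particular to them, since 254 of the 266 zinc finger genes were not called. Zfp238 (Zbtb18 in RefSeq), a repressor needed for cortical neurons, had 5.48, 6.11 and 5.74 RPKM in IP, against 13.3, 9.35 and 11 RPKM in input. Its groups did not overlap, and the log2 fold was -0.84 (limma adjusted p = 0.0606). Zfp809, which silences retroviral DNA in mouse embryonic stem cells, had 5.34, 4.24 and 7.58 RPKM in IP, against 11, 8.98 and 12.4 RPKM in input (log2 fold -0.83, limma adjusted p = 0.0880). Zfp57, which keeps methylation at imprinted loci, had 4.22, 3.07 and 4.62 RPKM in IP, against 3.73, 3.25 and 4.82 RPKM in input, with overlapping groups. Zfp148, a factor of proliferation and differentiation also called ZBP-89, had a log2 fold of -0.63 (limma adjusted p = 0.176) without overlap of its groups. The ubiquitin ligase gene Zfp91, the stem cell factor Zfp281, the neurodevelopmental genes Zfp292, Zfp335 and Zfp462, and the neural factors Zfp521 and Zfp536 had overlapping groups and log2 folds of -0.46 to 0.13 (limma adjusted p = 0.355 to 0.891). The folds of Zfp281, Zfp462 and Zfp521 turned positive after either scaling, and that of Zfp536 after quantile normalization.

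By the names that RefSeq uses now, 14 of the genes carry a SCAN domain name, 3 a BTB name and 2 belong to the AU-rich element binding group. Among the 14 Zkscan and Zscan genes, 0 passed by limma, where 3.29% of all genes tested were lower. An unadjusted p under 0.05 was found for 5 of the 14, beside 24.4% of all genes tested, and the median log2 fold was -0.41. The lowest p was that of Zfp187, now Zscan26, with 35.0, 27.4 and 28 RPKM in IP, against 58.0, 50.3 and 51.4 RPKM in input (log2 fold -0.81, limma adjusted p = 0.0638). Zfp192, now Zkscan8, had a log2 fold of -0.74 (limma adjusted p = 0.0848). Zkscan3, a repressor of autophagy genes, had -0.41 (0.345), and Zscan21 had -0.28 (0.523). Zkscan1, known as the host of a circular RNA, had 20.9, 18.4 and 15.6 RPKM in IP and 20.6, 17.3 and 22.3 RPKM in input, with overlapping groups. The 3 BTB genes had a median of -0.84. Zfp36l2 had 2.02, 1.23 and 1.65 RPKM in IP, against 3.15, 2.55 and 2.37 RPKM in input (log2 fold -0.49, limma adjusted p = 0.204). Its relative Zfp36, which is also induced by growth factors, lay under the input floor and had 1.19, 0.472 and 0.297 RPKM in IP, against 3.83, 3.19 and 1.57 RPKM in input (log2 fold -1.21, limma adjusted p = 0.0558 without and 0.0359 with the block).

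Position in the genome was read from the order of protein-coding genes in RefSeq (assembly GRCm38.p6, used for names and neighbours). A zinc finger gene stood directly beside 131 of the 266, which had a median log2 fold of -0.49 with 90.1% negative, and the other 135 had -0.35 with 80.0% negative. In 8 unbroken runs of neighbouring zinc finger genes with at least 4 of the genes studied, the medians were between -0.91 and -0.41. In 7 of the runs every fold was negative. The exception was the largest, from Zfp84 to Zfp146, where 9 of 12 folds were negative. It held Zfp566 (log2 fold -0.93, lower in IP) and also Zfp146 (1.12), Zfp260 (0.76) and Zfp30 (0.46), which are the 3 positive ones. The run from Zfp455 to Zfp273 held Zfp738, with a median of -0.90 over 6 genes. Neighbours in a run are similar in sequence and are not independent.

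**Figure D5:**
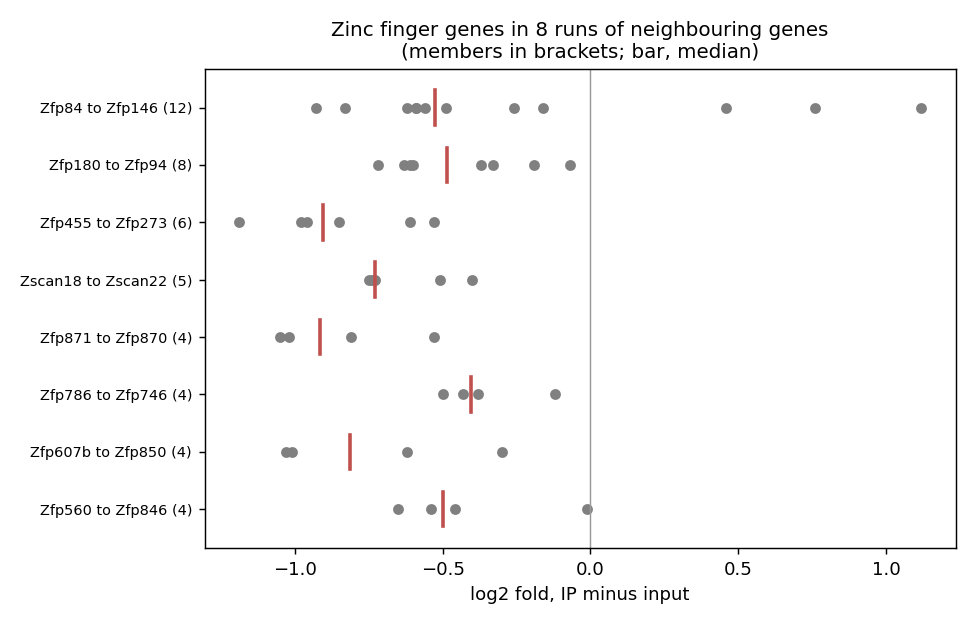
Log2 fold of IP minus input (x axis) for the zinc finger genes in 8 runs of neighbouring genes (rows, named by the RefSeq symbols at their ends, with the number of genes studied). Points are genes and red bars are medians, which all lie between -0.91 and -0.41; only the run from Zfp84 to Zfp146 has points right of 0.

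The promoters are shown to give the sequence in front of called genes, and promoter activity was not measured. RefSeq promoter sequence (GRCm38.p6, the first listed start) was matched for 214 of the 266 genes, and the 250 bases before the start were read. The ratio of observed to expected CpG reached 0.6 in 58.4% of them, against 69.9% of the other genes tested and 34.5% of all RefSeq promoters. The 89 genes under that ratio had a median log2 fold of -0.52, and the 125 at or above it had -0.38. The Sp1 motif GGGCGG, searched on both strands, stood in 43.5% of zinc finger promoters, against 60.4% of the other genes tested and 32.9% of all promoters. The Ets motif CCGGAAGT stood in 9.35% of zinc finger promoters, against 5.92% and 2.93%, the YY1 core AAGATGGC in 2.80%, against 2.02% and 1.59%, and the TATA motif TATAAA in 7.48%, against 6.0% and 13.0%. None of these 4 motifs contains another. Of the 12 promoters of called genes, 5 held the Sp1 motif, 1 the YY1 core, 1 the TATA motif and 0 the Ets motif. The last 120 bases before the start are printed for the 3 largest folds among the 12 called genes and for Zfp566 and Zfp146, which share a run but had folds of opposite sign, 5′ to 3′ with CpG in capitals.
Zfp113, chr5:138155745-138155864, minus strand: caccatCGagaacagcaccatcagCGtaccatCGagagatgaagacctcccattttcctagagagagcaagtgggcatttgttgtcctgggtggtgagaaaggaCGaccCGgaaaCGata
Zfp36l1, chr12:80113014-80113133, minus strand: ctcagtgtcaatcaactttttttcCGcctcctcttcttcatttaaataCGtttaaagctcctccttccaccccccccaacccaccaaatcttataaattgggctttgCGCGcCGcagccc
Zfp644, chr5:106696831-106696950, minus strand: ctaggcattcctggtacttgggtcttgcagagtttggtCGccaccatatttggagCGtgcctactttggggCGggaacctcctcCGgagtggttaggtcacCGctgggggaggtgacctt
Zfp566, chr7:30090511-30090630, minus strand: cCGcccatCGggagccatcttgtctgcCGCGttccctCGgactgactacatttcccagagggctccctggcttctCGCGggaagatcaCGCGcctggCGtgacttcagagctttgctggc
Zfp146, chr7:30169742-30169861, minus strand: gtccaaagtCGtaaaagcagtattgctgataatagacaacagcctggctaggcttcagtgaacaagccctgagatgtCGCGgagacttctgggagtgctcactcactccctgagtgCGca
The stretches hold 6, 5, 5, 10 and 4 CpG in the order printed. The TATA motif of Zfp36l1, the Sp1 motif of Zfp644, and the YY1 core and an Sp1 motif of Zfp566 lie in them. A match describes the letters and not a bound factor.

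Partners of the KRAB zinc finger proteins had no call in the main fit, which has all 6 libraries and no block. Of 39 silencing partners around Trim28, 34 were tested, and 0 passed by limma (2 higher and 3 lower at an unadjusted p under 0.05, beside 5.04% and 19.3% of all genes tested). Their median log2 fold was -0.23. Trim28 itself had 27.8, 25.4 and 26.5 RPKM in IP, against 18.3, 20.4 and 22.2 RPKM in input. Its groups did not overlap, and the log2 fold of 0.37 did not pass (limma adjusted p = 0.283). Setdb1 had -0.20 (limma adjusted p = 0.686). Morc2a, an ATPase of heterochromatin silencing, had 16, 15.4 and 22.3 RPKM in IP, against 8.30, 7.85 and 11.6 RPKM in input (log2 fold 0.88, limma adjusted p = 0.0717 without and 0.0439 with the block). Trim24 had -0.70 (limma adjusted p = 0.0773). Without IP 1 there were 4 calls, Morc2a higher and Atf7ip, Smarcad1 and Trim24 lower, in a fit where 3.65% of all genes tested were higher and 10.1% lower.

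Genes of mRNA decay and mRNA binding were listed beside the AU-rich element binding proteins. The list includes Elavl1, Rc3h1, Rc3h2 and Zc3h12a, whose action with these proteins was not tested. Of the 30 genes, a single gene was lower and 0 were higher (6 lower and 0 higher at an unadjusted p under 0.05). These shares are near those of all genes tested, of which 3.29% passed as lower and 19.3% were lower at an unadjusted p under 0.05. The list's median fold on the log2 scale was -0.15. Zc3h12a, which encodes the ribonuclease Regnase, had 1.48, 0.847 and 0.867 RPKM in IP, against 4.21, 3.53 and 2.52 RPKM in input (log2 fold -1.09, SE 0.24, limma adjusted p = 0.0423). Rc3h1, which encodes the RNA-binding protein Roquin, had -1.01 (limma adjusted p = 0.0647). Without IP 1 the calls were 4, all lower (Dcp2, Rc3h1, Rc3h2 and Zc3h12a), where 10.1% of all genes tested were lower, and leaving out any 1 of the other libraries left 0.

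Of 12 noncoding RNAs known to stay in the nucleus, Snhg11 was listed. It had 101, 9.47 and 22.4 RPKM in IP, against 189, 146 and 235 RPKM in input (log2 fold -2.68, limma adjusted p = 0.0575 without and 0.0444 with the block). IP 1 was the IP library nearest to its inputs. The part of nuclear RNA in the zinc finger values was not tested.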

How the data were processed

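The authors deposited a single table of linear RPKM values, as its column headings state, holding every library. Per the submitters' processing notes, build mm9 was used. Which aligner, counter and annotation they ran is not stated. The smallest value listed is 0.101. cDNA was amplified before library making, per the labels' protocols. Absolute depth is unknown.

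Values were taken as log2(RPKM + 1) for the 12328 entries with at least 1 RPKM in 3 of the 6 libraries, and IP was compared with input in limma 3.58.1 (R 4.3.3) with a mean-variance trend, two-sided, over all genes, at an adjusted p under 0.05. The fit was also run on simulated data with independent noise, without a pair effect or a deviating library. That run does not bear on the loss of calls when a library is left out. Python 3.11.15, pandas 2.3.3, numpy 2.4.6 and matplotlib 3.10.9 made the summaries and plots. All 266 symbols matched RefSeq, 14 of them under another current symbol. The genes, lists and tests were chosen with earlier results of these data known.

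The number of the warm challenge in the labels pairs IP and input. Deviations from group means correlated by 0.0548, 0.612 and 0.272 within pairs 1, 2 and 3, across genes. IP 2 and IP 3 correlated best with their own inputs, but IP 1 correlated best with input 3, so the values do not bear out pair 1. The main fit has no block. Whether libraries came from separate animals is not stated, so p-values measure the spread between these samples.

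Genes were named by rule: up to 12 lower and 8 higher calls by fold, positive folds by p up to 4, the 6 highest levels, the genes beside the floor, 20 genes with known roles, and the lowest p per symbol class and list. 1 further gene is not reported here. Protein classes were taken from current symbols, as no protein table was used. Pseudocount, filter, scaling, trend, block, floor and single libraries were varied.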

Additional observations from a re-analysis of the deposited data

How the results depend on the processing

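The median log2 fold of the zinc finger genes (-0.42) was negative in every alternative run. It was -0.25 with a pseudocount of 5, -0.27 after median scaling, -0.20 after quantile normalization and -0.47 to -0.37 with 1 library left out. The 12 lower calls became 3 after median scaling and 4 after quantile normalization, and 0 to 56 with 1 library left out, 56 being without IP 1. Higher calls were 1 after quantile normalization (Zfp579), 1 with the replicate block (Zfp146) and 0 to 4 with 1 library left out. The block kept 10 of the 12 lower calls. Partners of Trim28 past the threshold were 1 with the block and 0 to 4 with 1 library left out. For the mRNA decay list the count of 1 became 0 with a filter of 5 RPKM and after median scaling or quantile normalization. It was 0 to 4 with 1 library left out.

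Folds that were not called and changed sign were small. After median scaling they were 0.00 for Zfp706, 0.03 for Zfp664 and Zfp281, 0.05 for Zfp462, 0.07 for Zfp521 and 0.06 for Zkscan1. After quantile normalization they were 0.02 for Zfp281, 0.03 for Zfp462 and Zfp536, 0.07 for Zfp521 and 0.00 for Zkscan1. With 1 library left out the range was -0.48 to 0.20 for Zfp706, -0.39 to 0.03 for Zfp664, -0.23 to 0.26 for Zfp330, -0.04 to 0.39 for Zfp707, -0.08 to 0.36 for Zfp91, -0.08 to 0.30 for Zfp335, -0.26 to 0.02 for Zfp462 and -0.09 to 0.15 for Zfp57. The cause was not tested. Omissions leave fewer samples. Grouping by protein sequence was not run. With 3 libraries a group and no read counts, folds of low genes are uncertain.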

Other observations

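Other gene families linked to zinc fingers were counted under the same input floor. They were taken by the start of the symbol, so Zbtb8os is counted as a Zbtb gene. Of all genes tested 3.29% were lower, 0.892% higher and 24.4% had an unadjusted p under 0.05. Of 26 Zbtb genes 0 passed by limma (9 had an unadjusted p under 0.05), with a median log2 fold of -0.37. Of 11 Klf genes, Klf11 was lower in IP with 1.18, 0.755 and 0.924 RPKM, against 2.96, 2.99 and 3.61 RPKM in input (log2 fold -1.10, limma adjusted p = 0.0308), and the median was -0.66. Of 15 Zc3h genes 1 was lower, Zc3h12a, and the median was -0.09. The 18 Zdhhc genes, which encode palmitoyltransferases, had 1 higher and 3 lower, with a median of -0.43. Zdhhc14 had a log2 fold of 1.74 (limma adjusted p = 0.0245), and Zdhhc4, Zdhhc24 and Zdhhc7 had -1.06, -1.05 and -0.93 (limma adjusted p = 0.0446, 0.0420 and 0.0427). Of 14 Zcchc genes, Zcchc24 was lower (log2 fold -1.51, limma adjusted p = 0.0272), and the median was -0.35. The 9 Zmym and Zmynd genes (median -0.48) and the 6 Zfand genes (median -0.22) had 0 calls by limma, with 3 and 2 at an unadjusted p under 0.05. Negative folds were found for 88.9% of the Zmym and Zmynd, 88.5% of the Zbtb, 83.3% of the Zfand and 77.8% of the Zdhhc genes. The shares were 72.7% for Klf, 71.4% for Zcchc and 53.3% for Zc3h genes, beside 85.0% of the 266 zinc finger genes.

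Some zinc finger genes had an IP 1 value far from IP 2 and IP 3. IP 1 was over 1 log2 unit above their mean for 5 of the 266 genes and over 1 below it for 11. The same counts over all genes are not given, so this is not shown to be particular to the zinc finger genes. Zfp580 had 4.06, 13.8 and 11.6 RPKM in IP, against 11.5, 10 and 9.89 RPKM in input. Zfp318 had 38.9, 16.2 and 16.6 RPKM in IP, against 11.4, 13.3 and 17 RPKM in input. Zfp92 had 16.2, 7.51 and 5.35 RPKM in IP, against 11.1, 8.42 and 8.02 RPKM in input. These genes were chosen after their values were seen.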
